A study of Mus musculus with 15 samples.

Results

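Short coding regions, those of at most 300 nt, were examined in the ribosome profiles of mouse liver over 1 circadian day. Ribosome profiling sequences the mRNA fragments that ribosomes protect from nuclease, so that counts in the coding sequence (CDS) measure ribosome binding. A transcript was taken when its CDS had 1 to 300 nt in the deposited tables and its 5′UTR, CDS and 3′UTR together averaged 10 or more counts over the libraries. Genes whose symbol starts with Rpl, Rps, Mrp, Nduf, Cox, Uqcr or Atp5 (ribosomal and respiratory chain subunits) were left out, and 1 transcript per gene, the one with the highest mean, was kept. The rule left 226 genes of the 11618 with a transcript past the count minimum, or 226 of 28167 transcripts in the tables. Every library came from frozen liver tissue of a wild-type C57BL/6N male mouse of 8-10 weeks. The mice were entrained to 12 h of light and 12 h of dark for 2 weeks and then moved to constant darkness. From 24 h after that move they were killed every 4 h from CT0 to CT24 (circadian time in hours). Time in darkness thus rose with sampling time. There were 7 times with 2 mice and so 2 libraries each, and no other genotype or treatment. Because each mouse gave 1 sample at 1 time, the spread between the 2 libraries of a time includes differences between animals.

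Small proteins are often secreted peptides, metal carriers or the small subunits of larger machines. In the liver they include hepcidin, the hormone that limits iron export, the C apolipoproteins of circulating lipoproteins and the metallothioneins, which bind zinc and copper. A ribosome footprint is a sizeable piece of a CDS this short, and reads close to the start and the stop codon make up a larger part of the total than in a long CDS.

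The sequences at the start codons of 8 members are shown, because the results below turn on these genes. Each line is the annotated start codon in capitals with 12 nt before and 6 nt after it, 5′ to 3′ on the coding strand, read from the GRCm38.p6 (mm10) genome at the RefSeq start codon. All 8 windows lie within 1 exon. The 5′UTR lengths of Hamp and Hamp2 in the deposited tables differ from this annotation, so that for these 2 genes only the CDS was matched.
Mt1: ccagatctcggaATGgacccc
Mt2: cctccactcgccATGgacccc
Hamp: acagaaggcatgATGgcactc
Hamp2: acaggaggcatgATGgcactc
Leap2: tcttttgccaagATGctacag
S100a10: agactcttcaaaATGccatcc
Smagp: ccctcagcaacgATGaacaac
Mocs2: gtgtgtagcgggATGgttcct
The Mt1 window is chr8:94179299-94179319 on the + strand and the Mt2 window chr8:94172836-94172856 on the + strand, both in exon 1. The Hamp window is chr7:30943975-30943995 and the Hamp2 window chr7:30924124-30924144, both on the - strand in exon 1. The Leap2 window is chr11:53423094-53423114 on the - strand in exon 1. S100a10 starts in exon 2, at chr3:93560952-93560972 on the + strand, and Smagp in exon 2, at chr15:100636212-100636232 on the - strand. Mocs2 starts at chr13:114818294-114818314 on the + strand in exon 1. In Hamp and in Hamp2 a further atg stood directly before the annotated start codon, in the same frame.

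The libraries held 40593197 to 90458783 counts each, of which the 226 members took 0.273% to 0.587%. All nonzero counts of CT16 replicate 2 were even numbers, and the labels list 2 sequencing records behind the table of this library. The 7 hepatocyte markers summed to between 35059 and 48602 CPM (counts per 1000000 of a library size scaled by the trimmed mean of M values, TMM) in every library. Markers of pancreatic acinar cells (11 of 12 listed genes past the minimum) summed to 4165 CPM in CT20 replicate 2, to 80.8 in CT24 replicate 2, to 41.5 in CT12 replicate 2 and to 2.55 to 10.6 in the other libraries. No pancreatic islet marker passed the minimum. CT20 replicate 2 therefore went against its label of liver only, and calls are given below with and without it.

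A few genes, most of them for secreted proteins of the liver, held most of the counts of the members. The left-out ribosomal and respiratory families are not part of this total. Density here is the CPM of the CDS, scaled by TMM, per kilobase of CDS, averaged over the 14 libraries. The highest was that of Apoc1, an apolipoprotein of triglyceride-rich lipoproteins, at 3904 ± 709 (SD, n = 14), with 2790 in the lowest and 4793 in the highest library. Apoc3, which inhibits lipoprotein lipase, followed at 2462 ± 405 (SD, n = 14), and its 14 libraries lay between 1865 and 3231. This member is a transcript with a CDS of 197 nt in the tables, while Apoc3 also has a transcript of 418 nt that held more counts, so that most of these reads can belong to either. The longer Apoc3 CDS held a mean of 43003 counts and the CDS of the member 28820. In the longer transcript 0.0972% of the counts lay in the 5′UTR, against 10.9% to 20.0% over the libraries in the member. The density of the Apoc3 member may therefore not be that of a small protein. Wfdc21, a secreted protein with a whey acidic protein domain, reached 1027 ± 123 (SD, n = 14). Dbi, the acyl-CoA binding protein, reached 742 ± 96.7 (SD, n = 14). Hamp, which encodes hepcidin, had 668 ± 279 (SD, n = 14), the widest relative spread of these 5 genes. These 5 genes held 59.0% of all counts of the members. The other 5 of the 10 densest members were Atox1 (a copper chaperone) at 252, Apoc2 (the cofactor of lipoprotein lipase) at 183, Fxyd1 (a regulator of the sodium pump) at 151, Serp1 (a stress-associated protein of the endoplasmic reticulum) at 141 and Cxcl12 (a chemokine) at 137. Dbi and Cxcl12 also have a transcript with a longer CDS (412 and 364 nt), whose counts over the libraries followed those of the member with Pearson correlations of 0.949 and 1.00, so that their reads too can belong to either. The ranges of Atox1 over the libraries (205 to 307) and of Apoc2 (120 to 217) overlapped, and so did those of Fxyd1 (99.5 to 199), Serp1 (101 to 209) and Cxcl12 (114 to 181).

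The median density of the 226 members was 8.64, with quartiles of 3.84 and 28.0, and 19 members exceeded 100. The median over members ranged from 8.24 in CT8 replicate 1 to 10.7 in CT20 replicate 1. Among the 11391 genes with a CDS over 300 nt, 1 transcript each, the median was 2.34, and in each of the 14 libraries the median of the members was 3.56 to 4.74 times that of the longer ones. The difference followed CDS length. Genes with over 300 and up to 600 nt had a median of 8.76 (n = 1263), those with over 600 and up to 1200 nt one of 4.02 (n = 3311) and those over 2400 nt one of 0.955 (n = 2492). A minimum in counts is a higher minimum in density for a short CDS than for a long one. With a common minimum of 1 on density, set after the data were seen, the medians were 9.75 for 213 members, 11.4 for over 300 to 600 nt (n = 1113) and 4.89 for all longer genes (n = 7764). The members' median was above that of the genes over 2400 nt under either minimum. Against the genes of over 300 to 600 nt, the medians over single libraries overlapped (8.24 to 10.7 in members, 7.77 to 9.29 in those genes). Within the members, density and CDS length had a Spearman rank correlation of -0.07 (n = 226), a description across genes that share the same libraries. Members from genes with short coding regions alone had a median density of 9.86 (n = 168), and those from genes that also have a longer CDS had 6.36 (n = 58). The 41 left-out genes of the ribosomal and respiratory families up to 300 nt stood far above both, at a median of 94.2.

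**Figure D1:**
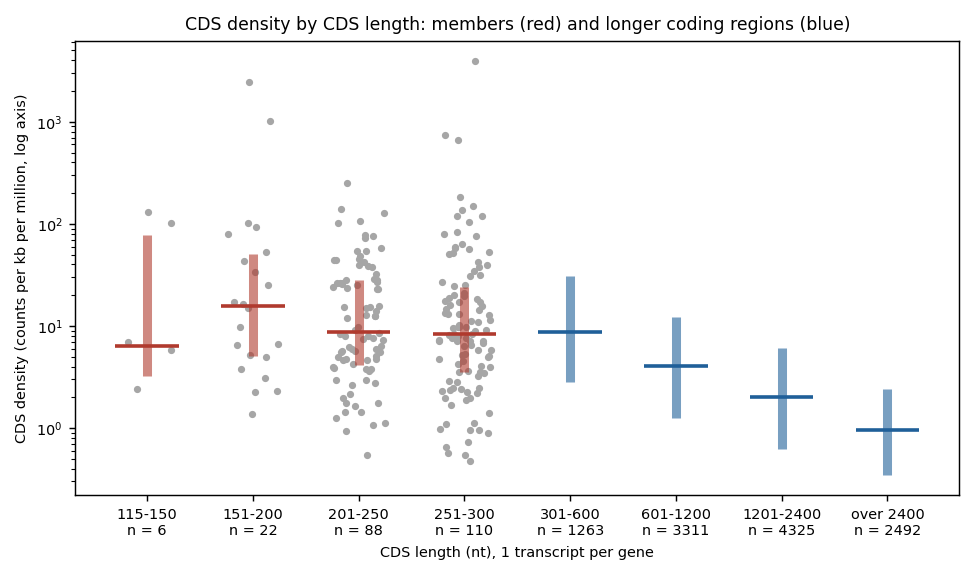
Mean CDS density over 14 libraries (log axis, CDS counts per kb scaled as CPM) by CDS length in nt, 1 transcript per gene. Thick bars span the quartiles, cross lines are medians and grey points are single members (2 members with no CDS count are not drawn). The medians of members of 201 to 250 nt (8.78) and 251 to 300 nt (8.36) sit near that of over 300 to 600 nt (8.76), those of the 22 members of 151 to 200 nt (15.9) and the 6 shorter ones (6.38) lie further off, and medians fall to 0.955 for genes over 2400 nt.

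At the length limit, the members with the longest CDS were Rnasek (300 nt, density 78.7), Cstb (300 nt, 38.1), a cysteine protease inhibitor, and Hikeshi (300 nt, 4.92), a nuclear import factor for heat shock proteins. Just outside lay 4930523C07Rik (301 nt, 2.13), Cxcl10 (301 nt, 2.54) and Acyp1 (302 nt, 7.81). At the count minimum, 2610044O15Rik8 with a mean of 11.4 counts, Fxyd3 with 12.2 and Nupr1 with 16.7 were inside, and Tmsb15l with 9.07, Smim6 with 8.36 and Tmsb15b1 with 8.36 were outside.

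Whether ribosome binding of the small proteins had a 24 h rhythm was tested with edgeR's quasi-likelihood F test of a cosine and sine over all transcripts, with Benjamini-Hochberg adjustment. The test and the CPM values below use the counts of the 5′UTR, the CDS and the 3′UTR together, unlike the density. With CDS counts alone 13 members passed, 12 of them the same. Of the 226 members, 13 passed an adjusted p of 0.05, or 5.75%, beside 11.3% of the 17299 transcripts tested (1947). At an unadjusted p of 0.05 there were 33 members (14.6%), beside 24.4% of all transcripts. The median fitted peak-to-trough difference was 0.41 on the log2 scale in members and 0.44 in longer genes. Calls became more frequent with depth in the longer genes, while the members' share did not rise steadily. Among transcripts with a mean of 300 to 1000 counts, 2 of 57 members and 455 of 2971 longer genes passed, and from 1000 counts up 4 of 30 members and 473 of 2033 longer genes did. Between 100 and 300 counts the shares were closer, with 6 of 72 members and 281 of 2966 longer genes. No test of the difference between the members and the other genes was made. Of the 13 fitted peaks, 6 lay between CT21 and CT3, 5 between CT9 and CT15, 2 between CT15 and CT21 and 0 between CT3 and CT9. The peaks of all called transcripts are not given here, so no share can be set beside these counts.

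**Figure D2:**
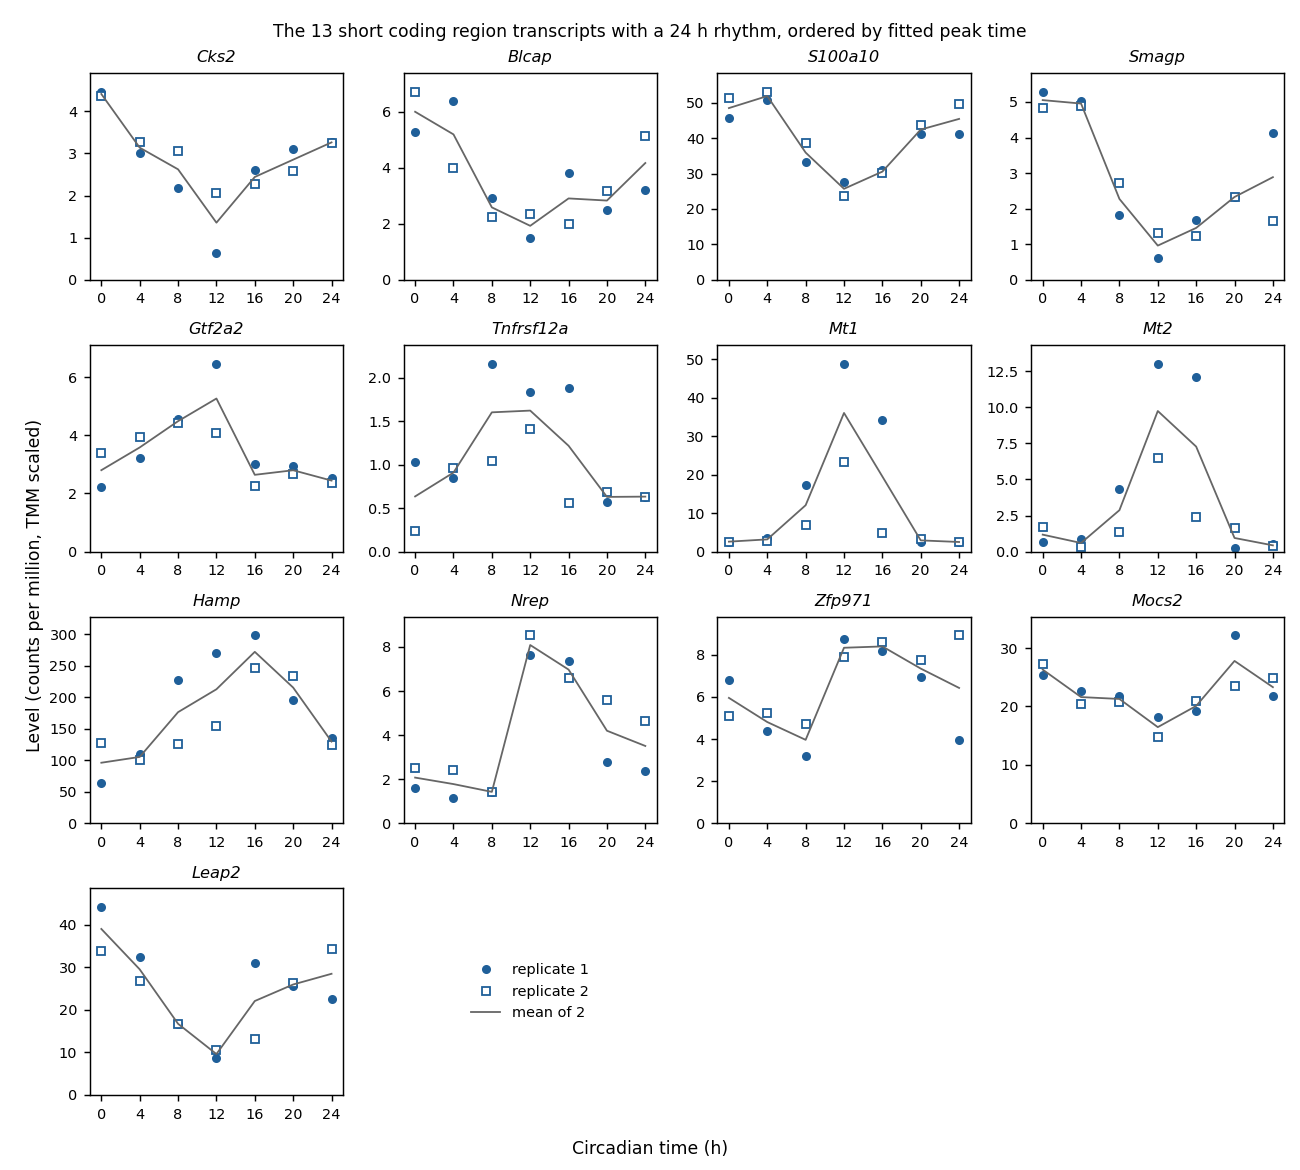
TMM-scaled CPM (each panel has its own linear axis from 0) against circadian time in hours for the 13 members with an adjusted p under 0.05, ordered by fitted peak. Filled circles are replicate 1, open squares replicate 2 and lines the mean of the 2. Mt1 stays between 2.43 and 3.58 CPM and Mt2 between 0.263 and 1.67 at CT0, CT4, CT20 and CT24, and they reach 48.8 and 13.0 CPM in CT12 replicate 1.

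The metallothioneins had the largest rhythms of the called members, and both that were measured passed. Mt1 stood at 2.61 and 2.54 CPM at CT0, 3.58 and 2.75 at CT4, 17.2 and 6.88 at CT8, 48.8 and 23.2 at CT12, 34.2 and 4.82 at CT16, 2.53 and 3.28 at CT20, and 2.43 and 2.55 at CT24. All 6 libraries from CT8 to CT16 were above all 8 of the other times, and the 2 mice at CT16 differed widely. The fitted difference between peak and trough was 15.2-fold (3.93 on the log2 scale), with a peak at CT12.4 ± 0.69 h (SE) and an edgeR adjusted p of 1.83e-05. Mt2 stood at 0.675 and 1.67 CPM at CT0, 0.868 and 0.322 at CT4, 4.37 and 1.38 at CT8, 13.0 and 6.47 at CT12, 12.1 and 2.43 at CT16, 0.263 and 1.62 at CT20, and 0.510 and 0.352 at CT24. Its libraries at CT12 and CT16 lay above all others except that CT8 replicate 1 exceeded CT16 replicate 2. The fitted difference was 16.3-fold with a peak at CT13.2 ± 0.90 h (SE) and an edgeR adjusted p of 3.44e-04. Over 20 other settings the difference for Mt2 lay between 3.57 log2 (without CT16 replicate 1) and 4.93 log2 (without both CT0 libraries), against 4.02 here, and it was 4.68 without CT0 replicate 2. Over all 17299 transcripts 11.3% passed, and the lists of longer genes here and below are too small to read a share from. Of 14 longer genes of metal transport and metal response that were tested, 4 passed. These were Slc39a14, an importer of zinc, manganese and iron, with a peak at CT12.8 and 0.83 log2 from peak to trough, Slc30a10, a manganese exporter, at CT0.73 and 2.02, Gclc, the catalytic subunit of the first step of glutathione synthesis, at CT2.78 and 1.03, and Slc39a7, a zinc transporter of the secretory pathway, at CT7.29 and 0.50. Mtf1, the zinc-sensing factor that activates metallothionein genes, had 0.31 log2 and an edgeR adjusted p of 0.654.

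Of the 11 small secreted proteins of the liver list, Hamp and Leap2 passed, beside 11.3% of all transcripts. Their fitted peaks lay in the early subjective night and near the start of the subjective day. Hamp stood at 64.5 and 128 CPM at CT0, 110 and 100.3 at CT4, 228 and 125 at CT8, 271 and 155 at CT12, 298 and 246 at CT16, 197 and 235 at CT20, and 135 and 124 at CT24. Both CT16 libraries and both CT20 libraries were above all 6 libraries of CT0, CT4 and CT24, while CT8 replicate 2 lay within their range. The fit gave 2.65-fold with a peak at CT14.8 ± 0.84 h (SE) and an edgeR adjusted p of 0.00239. Leap2, a liver peptide that blocks the ghrelin receptor, stood at 44.1 and 33.9 CPM at CT0, 32.3 and 26.7 at CT4, 16.8 and 16.7 at CT8, 8.65 and 10.6 at CT12, 31.0 and 13.1 at CT16, 25.6 and 26.3 at CT20, and 22.6 and 34.3 at CT24. The CT12 libraries were the lowest of all 14, and the CT16 libraries differed widely. The fit gave 2.77-fold with a peak at CT23.6 ± 0.85 h (SE) and an edgeR adjusted p of 0.00311. Hamp2, the second hepcidin gene of the mouse, ranged from 5.57 CPM in CT12 replicate 2 to 31.4 in CT16 replicate 1, with an edgeR adjusted p of 0.130, which fell under the threshold when CT8 replicate 1 (0.0459) or CT16 replicate 1 (0.0398) was left out. Of 17 longer genes of hepcidin control and iron transport, 3 passed, beside 11.3% of all transcripts. They were Hjv, Tfrc and Fga. Hjv, the hemojuvelin co-receptor, had a peak at CT23.9 and Tfrc, the transferrin receptor, at CT15.7. Fga, a fibrinogen chain listed as an acute phase gene, had one at CT5.81. The other 9 small secreted proteins did not pass, among them Apoc1 at an edgeR adjusted p of 0.756 and 0.20 log2 and Apoc3 at 0.118 and 0.39 log2 (edgeR adjusted p of 0.0247 without CT16 replicate 1).

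Like Leap2, S100a10, Smagp, Blcap and Cks2 had a fitted peak around CT0 and low levels at CT12. S100a10, the partner of annexin A2 at the plasma membrane, had the tightest phase. It stood at 45.7 and 51.3 CPM at CT0, 50.7 and 53.0 at CT4, 33.1 and 38.7 at CT8, 27.6 and 23.8 at CT12, 31.0 and 30.1 at CT16, 41.1 and 43.7 at CT20, and 41.2 and 49.7 at CT24. All 8 libraries from CT20 to CT4 were above all 6 from CT8 to CT16. The fit gave 1.87-fold with a peak at CT1.31 ± 0.51 h (SE) and an edgeR adjusted p of 2.75e-04. It was the 1 of 5 members of the S100 calcium-binding family that passed. Smagp, a small transmembrane glycoprotein, stood at 5.28 and 4.83 CPM at CT0, 5.04 and 4.87 at CT4, 1.81 and 2.74 at CT8, 0.605 and 1.32 at CT12, 1.68 and 1.24 at CT16, 2.32 and 2.34 at CT20, and 4.12 and 1.65 at CT24. The 4 libraries of CT0 and CT4 were above the other 10. The fit gave 4.33-fold with a peak at CT1.91 ± 0.81 h (SE) and an edgeR adjusted p of 9.84e-04. Blcap, a small membrane protein, had its lowest level in CT12 replicate 1 (1.49 CPM) and its highest in CT0 replicate 2 (6.71 CPM), with 2.51-fold and an edgeR adjusted p of 0.0104. Cks2, which binds cyclin-dependent kinases, was lowest in CT12 replicate 1 (0.642 CPM) and highest in CT0 replicate 1 (4.45 CPM), with 2.19-fold and an edgeR adjusted p of 0.0389. Without the CT0 libraries neither Blcap (edgeR adjusted p of 0.0771) nor Cks2 (0.216) passed.

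Nrep, a small protein named for neuronal regeneration, had low levels until CT8 and high ones at CT12 and CT16. It stood at 1.62 and 2.53 CPM at CT0, 1.15 and 2.41 at CT4, 1.43 and 1.42 at CT8, 7.65 and 8.52 at CT12, 7.37 and 6.57 at CT16, 2.80 and 5.60 at CT20, and 2.39 and 4.63 at CT24. The 4 libraries of CT12 and CT16 were above all 10 others. The fit gave 4.88-fold with a peak at CT15.9 ± 0.78 h (SE) and an edgeR adjusted p of 0.00289.

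The other 4 called members were short transcripts of genes that also have a CDS over 300 nt, and their counts over the 14 libraries followed those of the longer transcript with Pearson correlations of 0.971 to 0.992. A rhythm of such a member can therefore belong to either reading frame. Gtf2a2, the small subunit of transcription factor TFIIA, ranged from 2.21 CPM in CT0 replicate 1 to 6.47 in CT12 replicate 1 (edgeR adjusted p of 0.0114), and its 334-nt transcript had an edgeR adjusted p of 0.00740. Under the total count as library size the short Gtf2a2 transcript had an edgeR adjusted p of 0.353. Zfp971, a zinc finger protein, ranged from 3.21 in CT8 replicate 1 to 8.92 in CT24 replicate 2 (0.0382), and its 1417-nt transcript had 0.0245. Mocs2 ranged from 14.7 in CT12 replicate 2 to 32.2 in CT20 replicate 1 (0.0447), and a transcript with a 575-nt CDS had 0.0289. Tnfrsf12a, the receptor of the cytokine TWEAK, ranged from 0.241 in CT0 replicate 2 to 2.16 in CT8 replicate 1 (0.0457), and its 394-nt transcript had 0.0584. Its mean of 66.2 counts is under the minimum of 100 set for naming, and it is named so that all 13 are accounted for. Zfp971, Cks2, Mocs2 and Tnfrsf12a kept their call in 8 to 11 of 20 other settings. Mt1, Mt2, Hamp, Nrep, Leap2, S100a10 and Smagp passed in all 20, CT20 replicate 2 left out included. These settings do not include the JTK_CYCLE test, by which, after Benjamini-Hochberg adjustment, S100a10 (0.0142), Mt1 (0.0194), Cks2 (0.0276) and Hamp (0.0433) passed. Smagp (0.0726), Leap2 (0.0744), Nrep (0.142) and Mt2 (0.220) did not pass by JTK_CYCLE. On simulated counts this test found fewer of the rhythms put in than edgeR did. Without that library 10 of the 13 passed and no other member did, and Mocs2 (edgeR adjusted p of 0.0506), Zfp971 (0.0539) and Tnfrsf12a (0.0623) did not.

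**Figure D3:**
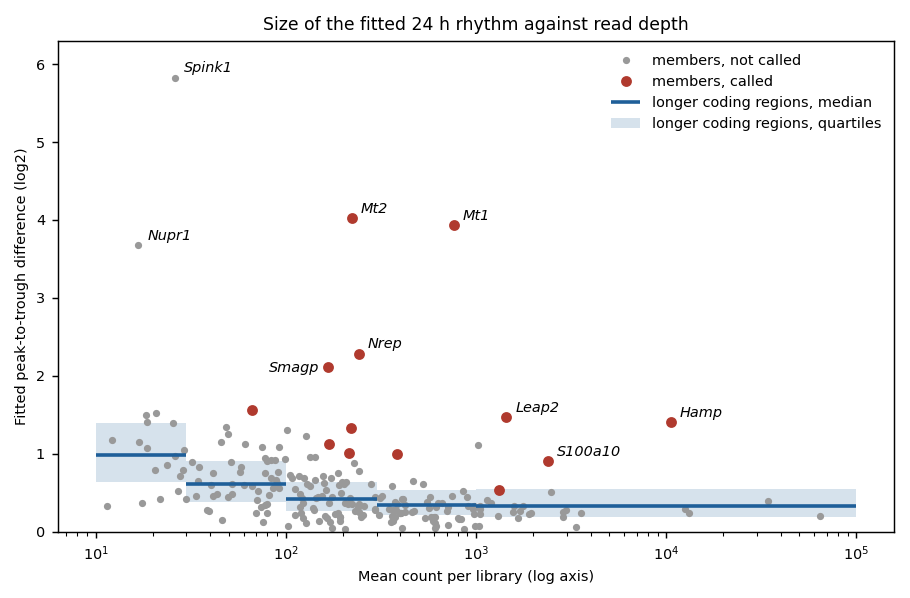
Fitted peak-to-trough difference (log2) against mean count per library (log axis) for the 226 members (red: called, grey: not called). Blue lines and bands are the median and quartiles of longer coding regions in the same count ranges. Mt1 and Mt2 lie near 4, Hamp, Leap2 and S100a10 lie above the band at high counts, and Spink1 at 5.82 was not called.

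Of 20 lists by function, which together held 98 members, 14 had no called member. No member passed among 9 small proteins of mitochondrial protein import, the tiny Tim and Tom subunits and Romo1, with peak-to-trough values of 0.19 to 0.59 log2. The same held for 15 longer import proteins. None of 13 other small mitochondrial proteins passed (such as Micos10 of the cristae junction at 0.04 log2), and none of 5 of the translocon and oligosaccharyltransferase (Sec61b, Sec61g, Ost4, Tmem258 and Serp1) or of 17 longer partners did. Tmem258 had an edgeR adjusted p of 0.0490 in the fit with a replicate block. None of 9 Sm, Lsm and other small proteins of nuclear RNA particles (Sf3b5 of the spliceosome and Nop10 of the H/ACA particles among them) and none of 16 longer splicing proteins passed. Ubiquitin-like proteins and small ligase or proteasome subunits gave 0 of 9, with a median of 0.18 log2. G protein gamma subunits gave 0 of 7, dynein light chains 0 of 3, thymosins, short selenoproteins and small immune proteins 0 of 2 each, small kinase regulators 0 of 4, and the single cystatin, the single acyl-CoA binding protein and the single gut and pancreas peptide none. Among 5 small subunits of the transcription machinery Gtf2a2 passed, and among 6 small chromatin and cell cycle proteins Cks2 did. The list of copper, iron and metal proteins had 3 of 6, namely Mt1, Mt2 and Hamp, which other lists also hold. Across all 17299 transcripts 11.3% passed, and the lists are too small to read a share from.

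Spink1 and Nupr1 were seen chiefly in CT20 replicate 2. Spink1, the trypsin inhibitor of pancreatic acinar cells, stood at 5.30 CPM there, at 0.475 in CT24 replicate 2 and at 0 to 0.174 in the other 12 libraries. It had 317 counts in CT20 replicate 2 and 0 to 27 in each other library, so it passed the count minimum only through CT20 replicate 2. Nupr1, a stress-induced nuclear protein that the pancreas also makes, stood at 2.17 CPM in CT20 replicate 2 and at 0 to 0.402 elsewhere. With 130 counts there and 0 to 25 in each other library, Nupr1 too passed the count minimum only through CT20 replicate 2. The height of these 2 genes there was thus a condition of their being members, and it adds nothing to the acinar markers. The acinar markers had their highest sums in the same 2 libraries as Spink1, at 4165 and 80.8 CPM. Spink1 had a fitted difference of 5.82 log2 and an edgeR adjusted p of 0.0652, which became 0.768, with a difference of 1.68 log2, without CT20 replicate 2. Over 20 other settings the difference ran from 1.68 to 10.7 log2, the latter without CT8 replicate 2. Spink1 passed without CT8 replicate 2 (edgeR adjusted p of 0.00916), without CT20 replicate 1 (0.0324) and under total-count scaling (0.0197). As the filter let it in through CT20 replicate 2 alone, none of these passes is read as a rhythm.

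Reads in the 5′UTR were a larger part of the total for short coding regions than for long ones. The share of a member's counts in its 5′UTR had a median of 12.7% (quartiles 2.78% and 30.2%), beside 3.57% for the longer genes. In 126 of 226 members (55.8%) it exceeded 10%, as it did in 25.8% of longer genes. Per nucleotide the picture differed, because the 5′UTRs had like lengths (medians of 139.5 and 147 nt) while the CDS did not. The count per nucleotide of 5′UTR was 0.307 times that of the CDS in the median member and 0.366 times in the median longer gene. The 5′UTR share followed 5′UTR length, with a Spearman rank correlation of 0.69 over the 226 members and 0.69 over the 11391 longer genes, given as a description across genes. Among members with at least 50 counts the highest shares were those of Morn2 at 85.8%, 4833439L19Rik at 75.8% (50.9% in a transcript of the gene with a 919-nt CDS), Chchd7, a mitochondrial protein with a twin cysteine motif, at 67.5%, Cdc26, a subunit of the anaphase-promoting complex, at 64.0%, and Cdc42se1, an effector of the GTPase Cdc42, at 62.0%. The share of Chchd7 was 58.9% to 79.6% in the single libraries and that of Cdc26 45.0% to 81.0%. Serp1, among the 10 densest members, had 41.3% of its counts in the 5′UTR. Nbdy, a microprotein of the mRNA decapping complex, had 26.2 counts per library, all in the 5′UTR and none in its 135-nt CDS. It falls outside the rule for named genes and was chosen after its values were seen, as was Gng3 below.

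An upstream ATG was about as common in members as elsewhere. Of the 200 members whose 3 region lengths matched the RefSeq annotation, 88 (44.0%) had an ATG in the 5′UTR, and 67 (33.5%) had one with an in-frame stop before the CDS. Of 8284 matched longer genes 46.9% had an upstream ATG and 39.4% a closed frame. The 88 members with an upstream ATG had a median 5′UTR share of 26.7% and a median density of 7.21, and the 112 without had 6.02% and 12.2. Their 5′UTRs also differed in length, with medians of 224 and 98 nt, so that length and upstream ATGs cannot be told apart here. Short closed frames are shown for 5 named members, with the start codon in capitals and the stop codon as the last 3 letters, 5′ to 3′ on the coding strand from GRCm38.p6.
Apoc1: ATGggcctcctgagagatccttag
Cdc42se1: ATGggttaa
Hikeshi: ATGtag
Gtf2a2: ATGcaagcctga
Srp9: ATGgcgtga
They lie at chr7:19692615-19692638 (- strand) for Apoc1, chr3:95228465-95228473 (+ strand) for Cdc42se1, chr7:89941126-89941131 (- strand) for Hikeshi, chr9:70015299-70015310 (+ strand) for Gtf2a2 and chr1:182124764-182124772 (+ strand) for Srp9. The Hikeshi frame is a start codon followed directly by a stop codon. Their 5′UTR shares were 2.28% for Apoc1, 62.0% for Cdc42se1, 57.0% for Hikeshi, 17.6% for Gtf2a2 and 39.4% for Srp9. For Hikeshi the share was 32.7% in a transcript with a 599-nt CDS, whose counts per library were nearly the same. At the CDS start, 178 of 200 members (89.0%) had A or G at the third base before the ATG, and 94 (47.0%) had G directly after it, beside 86.8% and 53.3% of 8259 longer genes.

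Reads in the 3′UTR were few for most members, with a median share of 1.30% beside 0.177% for longer genes, but 51 members (22.6%) had over 5%, beside 3.66% of longer genes. Of the members from genes that also have a longer CDS, 21 of 58 (36.2%) had over 5%, and of the others 30 of 168 (17.9%). The 5 highest shares among members with at least 50 counts belonged to Prorsd1 (74.0%), Zfp386 (70.0%), Pym1 (68.7%), a factor that removes exon junction complexes, C030006K11Rik (57.5%) and Jagn1 (51.1%), a membrane protein of the early secretory pathway. All 5 genes also have a longer CDS in the tables, and in the longer transcript the 3′UTR held 0.381%, 0.179%, 1.30%, 0.950% and 0.150% of the counts. For Jagn1 the 206-nt CDS of the member held a mean of 287 counts and the 554-nt CDS of the longer transcript 601. The share of 36.9% for Mocs2 (28.3% to 49.0% over the libraries) was that of a gene known to encode both subunits of molybdopterin synthase from 2 overlapping reading frames, and the longer transcript, with a CDS of 575 nt, had 0.305% of its counts in the 3′UTR. Snurf, whose transcript also carries the coding region of the splicing protein Snrpn, had 40.3% (24% to 51.2%). Its counts were the same as those of another transcript in every library. Selenok, a selenoprotein in which a UGA codon is read as selenocysteine, had 28.4% (10.3% to 47.6%), while Selenow, another selenoprotein, had 1.50%. Dexi had 53.6% of its counts in the 5′UTR and 18% in the 3′UTR, and the other 28.4% in its CDS. Gng3, a G protein gamma subunit made mainly in neurons, had 98.6% of its 20.6 counts per library in the 3′UTR and none in the CDS.

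**Figure D4:**
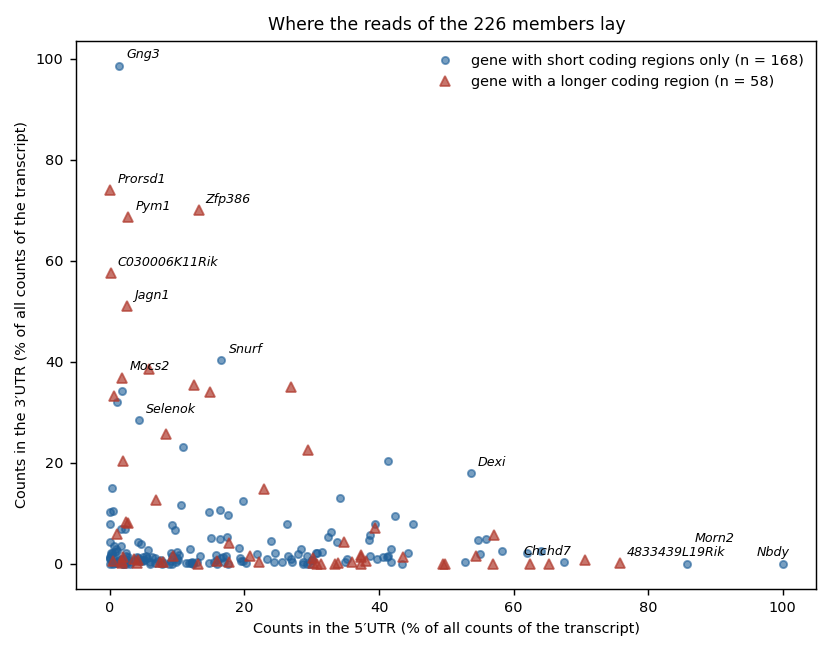
Share of each member's counts in the 5′UTR (x axis, %) and 3′UTR (y axis, %), summed over the 14 libraries. Blue circles are the 168 members of genes with short coding regions alone and red triangles the 58 of genes that also have a longer CDS. Prorsd1, Zfp386, Pym1, C030006K11Rik and Jagn1, all triangles, lie above 50% in the 3′UTR.

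No member had a ratio of 5′UTR to CDS counts that passed a test for a 24 h rhythm. With limma on the log2 ratio, Benjamini-Hochberg adjusted over 7640 transcripts with at least 10 counts in both regions, 0 of 150 members passed, beside 0% of all tested. At an unadjusted p of 0.05 there were 6 of 150 members (4.00%) and 373 of all transcripts (4.88%), and no other tool was run on this ratio. The 5 members with the lowest p were Srp9, a subunit of the signal recognition particle, with 2.32 log2 from peak to trough, Atxn7l3b with 1.27, Coa6, a copper protein of cytochrome oxidase assembly, with 0.98, Snrpf, an Sm protein, with 3.12, and Smco4 with 1.04. All 5 had a limma adjusted p of 0.809. In simulated data of this depth the test missed most ratios that moved by 2 log2, so that small rhythms of the ratio were not detectable.

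In each library, 6 pairs of short paralogs were compared by the log2 ratio of CDS density. The mean ratio was tested by flipping signs in an exact permutation test, two-sided, with Benjamini-Hochberg adjustment over the 6 pairs. Mt1 exceeded Mt2 in 14 of 14 libraries, by 1.81 ± 0.76 on the log2 scale (SD, n = 14), or 3.50-fold. The ratio ranged from 0.66 to 3.21 over the libraries. Hamp exceeded Hamp2 in 14 of 14, by 3.56 ± 0.89 (SD, n = 14), or 11.8-fold. Tmsb4x exceeded Tmsb10 in 14 of 14, by 5.72 ± 1.47 (SD, n = 14), with a range of 4.79 to 10.5. The highest ratio was that of CT24 replicate 2, where Tmsb10 had 0 counts and the pseudocount of 0.5 sets the value, and the mean was 5.35 without that library. Dynll2 exceeded Dynll1 in 14 of 14, with a log2 ratio of Dynll1 to Dynll2 of -3.50 ± 0.63 (SD, n = 14). Thymosins bind actin monomers, and Dynll1 and Dynll2 are light chains of dynein. These 4 pairs reached an exact p of 0.000122, the smallest that 16384 sign flips can give, or 0.000183 after adjustment. Hmgn1, a nucleosome-binding protein, exceeded Hmgn2 in 11 of 14 libraries, by 0.48 ± 0.52 (SD, n = 14), with an exact permutation p of 0.00391 and 0.00469 after adjustment. With the counts of all 3 regions per transcript length this ratio was 1.34, or 2.53-fold. Cks1b exceeded Cks2 in 4 of 14, with a log2 ratio of -0.64 ± 0.82 (SD, n = 14) and an exact permutation p of 0.0142, which adjustment left at 0.0142. With all 3 regions it was -1.14. The order of Cks1b and Cks2 was not the same in all libraries, and Cks2 passed the rhythm test while Cks1b had an edgeR adjusted p of 0.160. Whether the 2 rhythms differ was not tested. Hamp and Hamp2 are close copies, as their start codon windows show. Per the study's methods only reads that aligned to 1 place in the genome were used, so reads that fit both genes do not enter their ratio. In the other pairs too, reads that fit a further place in the genome are missing. How many each gene lost was not tested, and sign flips cannot show a loss that all libraries share. The 14 libraries span all times and are not replicates of 1 condition, so these p-values speak of the ratio over the day.

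**Figure D5:**
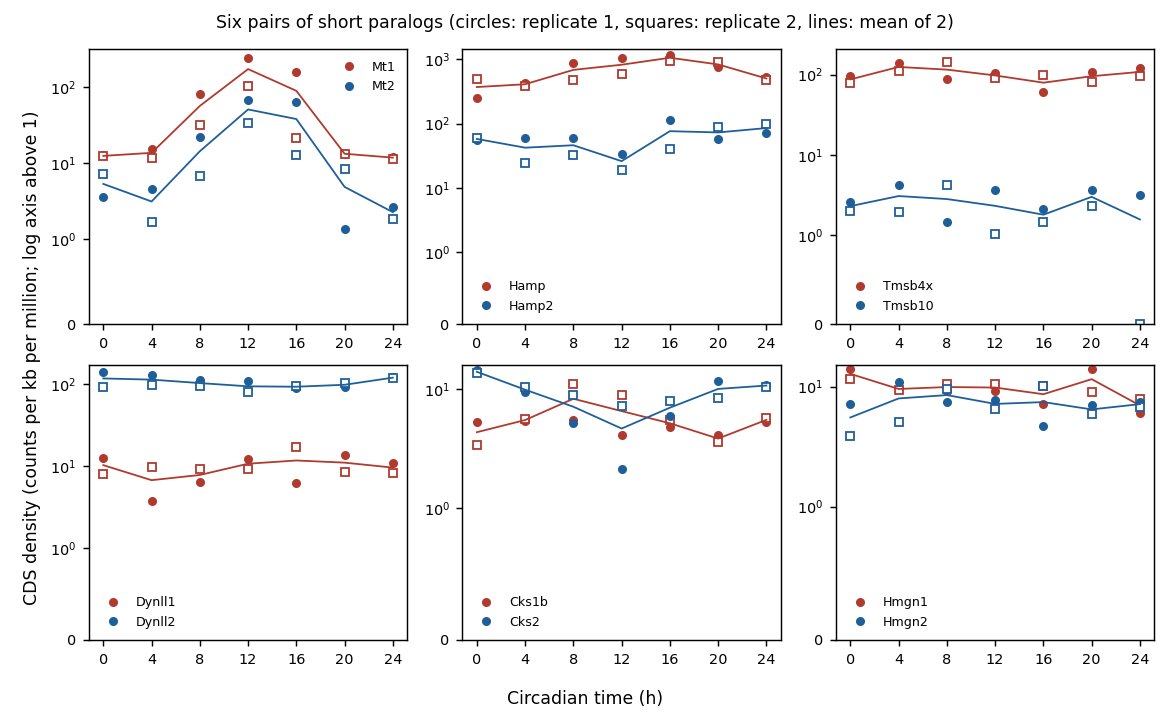
CDS density (CDS counts per kb scaled as CPM, log axis above 1 and linear below) against circadian time in hours for 6 pairs of paralogs. Circles are replicate 1, squares replicate 2 and lines the mean of the 2. Mt1 lies above Mt2 and Hamp above Hamp2 in every library, and the order of Cks1b and Cks2 changes between times.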

How the data were processed

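Ribosome profiles of 14 livers were used, from 2 mice at each time. Per the submitters' processing notes and the study's methods, reads were checked with FastQC, reads of ribosomal RNA were removed, and the rest were aligned to mm10 with Bowtie2 2.1.0.0 and kept on an exact match with SAMtools 0.1.19.0. Reads with 1 genomic location were used, each placed at its A site by its length. Bowtie2 does not split reads across introns. How reads at exon junctions, or reads shared by transcripts of 1 gene, were counted is not given in the sources used here. The authors deposited, for each library, raw counts of reads for 28167 RefSeq transcripts, split into CDS and both UTRs, with the length of each. The CDS length in the tables was the annotated length plus 1 nt per CDS exon in 224 of 226 members, so the longest annotated CDS was 297 nt. Symbols came from RefSeq (27836 matched), and positions and sequences from GRCm38.p6.

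Rhythms were tested with edgeR 4.0.16 (TMM, quasi-likelihood F test of a 24 h cosine and sine, mean of at least 10 counts) and ratios with limma 3.58.1 (pseudocount 0.5), both with Benjamini-Hochberg adjustment over all transcripts tested, in R 4.3.3. CT24 was given the phase of CT0. Alternatives were DESeq2 1.42.0, a JTK_CYCLE test rewritten in Python 3.11.15 and run on CPM of these 17299 transcripts (the study ran JTK_CYCLE on RPKM of well-translated transcripts), other scalings, count minimums and left-out libraries. The rhythm and ratio tests were tried on simulated data with known rhythms, and the sign-flip test of the paralog pairs was not. Named genes were the 10 densest members, called members with at least 100 counts, the 5 highest 5′UTR and 3′UTR shares from 50 counts up, the 5 lowest ratio p-values, listed families, paralog pairs and genes at the length limit. The members and lists were chosen with earlier results of these data known. The labels give CT16 replicate 2 a second record and place its data in the same table, so it was counted as 1 sample.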

Additional observations from a re-analysis of the deposited data

How the results depend on the processing

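The number of members with a 24 h rhythm, 13, was 11 to 16 with CDS counts only, total-count or upper quartile scaling, minimums of 1 or 100 counts, 1 transcript per gene, DESeq2 (16), CT16 replicate 2 halved or CT24 left out, and 9 to 15 when 1 library was left out. In each of these settings the members' share was below that of all transcripts. It was 6.19% beside 8.24% with the total count, 7.55% beside 16.7% with a minimum of 100 and 7.08% beside 14.5% with DESeq2. Under the total count 14 members passed, 10 of them among the 13. The number with a rhythm was lower or higher in some other settings. The number was 8 without CT0 (3.54%, beside 8.13% of all transcripts), 4 by JTK_CYCLE with Benjamini-Hochberg adjustment (1.77%, beside 3.45%), and 18 by JTK_CYCLE adjusted over lags only (7.96%, beside 16.7%). By the last on CPM of the total count it was 43 (19%, beside 17.6%), where the members' share is no longer the lower one. On simulated counts with 200 rhythms among 17299 transcripts, 433 of 587 calls of the test over lags only were false. That share depends on how many rhythms were put in, so it does not carry over to these data. TMM factors ran from 0.736 to 1.46, and the 2 scalings differ by a rhythm of 0.46 log2 that every transcript shares. Its peak is at CT22.4 in total-count values relative to TMM values. Whether total-count scaling adds this rhythm or TMM removes it was not tested. In a paired fit with the replicate block 15 members passed, all 13 among them, with Tmem258 (edgeR adjusted p of 0.0490) and Dars (0.0364) added. It changed no further call in the tests it was run on, and same-numbered libraries did not deviate together (correlations of -0.12 to 0.30, above 0.1 in 3 of 21 pairs of times). Without members of genes that also have a longer CDS (chosen after seeing the data) 9 of 168 passed. The rhythm of the 5′UTR to CDS ratio gave 0 members in all 21 settings.

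The median density of 8.64 became 17.0 for members with at least 100 counts, 12.5 for those up to 240 nt, 9.86 for genes with short coding regions alone, and 8.48 to 8.91 with 1 library left out. The median 3′UTR share of 1.30% became 1.69% up to 240 nt, and 1.20% to 1.32% with 1 library left out, and the median 5′UTR share stayed between 11.1% and 13.6%. All 6 paralog ratios kept direction and call in 16 settings each, but with all 3 regions Hmgn1 over Hmgn2 went from 0.48 to 1.34 log2 and Cks1b over Cks2 went from -0.64 to -1.14. Without 1 library Mt1 over Mt2 lay between 1.70 and 1.90 log2. With 1 library left out, Cks2 lost its call in 8 cases, Mocs2 in 11, Zfp971 in 9 and Tnfrsf12a in 10. With 2 mice per time the depth limits small rhythms, and edgeR missed part of those of 1 log2 in simulated counts. The cause of these shifts was not tested.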
